A study of Mus musculus with 12 samples.

Results

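Sox9, Sox5, Sox6, Runx1, Runx2, Runx3, Sp7, Alpl and Ibsp are 9 genes of the cartilage and bone programmes, and they were followed here in the tongue of the mouse embryo. They were chosen by name, as the Sox and Runx regulators of the skeleton together with an osteoblast factor and a pair of bone products. All probe sets annotated with only that symbol were taken, 26 of the 45101 on the array, and they covered 8 of the 9 genes. No probe set used here carried the symbol Runx2, and Runx2 was not analysed here. The 8 genes stand among 18193 genes measured.

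The tongues came from C57BL/6J embryos at embryonic day 13.5, and each of 12 samples was hybridised to 1 Affymetrix Mouse Genome 430 2.0 array. The 6 control tongues had the genotype Myf5-Cre;Smad4flox/+ and the 6 mutant tongues Myf5-Cre;Smad4flox/flox, so every embryo carried the Cre and at least 1 floxed copy of Smad4, the SMAD shared by TGF-β and BMP signalling. Cre is made where Myf5, a muscle determination gene, is expressed, so the deletion is aimed at the muscle lineage. RNA was taken from whole tongue tissue, so in every value below a change in the number of cells of a type and a change in RNA per cell cannot be told apart. The labels call the samples biological replicates but give neither litter nor the number of tongues pooled.

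SOX9 switches on cartilage matrix genes, and SOX5 and SOX6, which are close relatives of each other, bind beside it on many of these genes. SOX6 has a separate role in skeletal muscle, where it represses slow fibre genes. RUNX proteins bind DNA together with their partner CBFβ: RUNX2 and the zinc finger factor Osterix, made by Sp7, drive osteoblast formation, RUNX1 is best known from blood and RUNX3 from sensory neurons. The tongue itself forms no bone, and the cartilage nearest to it lies in the jaw and hyoid.

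Signals are on a log2 scale, and a difference is mutant minus control. A gene is said to rise or fall where limma's adjusted p over all 18193 genes was under 0.05, using the brightest probe set of each gene over the 12 arrays. By this rule 2 of the 8 measured genes rose, Sox9 and Sox5, and 1 fell, Sox6. Over all genes tested, 6.3% rose and 4.8% fell, 11.1% in all. The other 5 genes, Runx1, Runx3, Sp7, Alpl and Ibsp, did not pass. The median difference of all genes was 0.01. Levels of different probe sets depend on their probes, so the genes are not ranked by level.

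**Figure D1:**
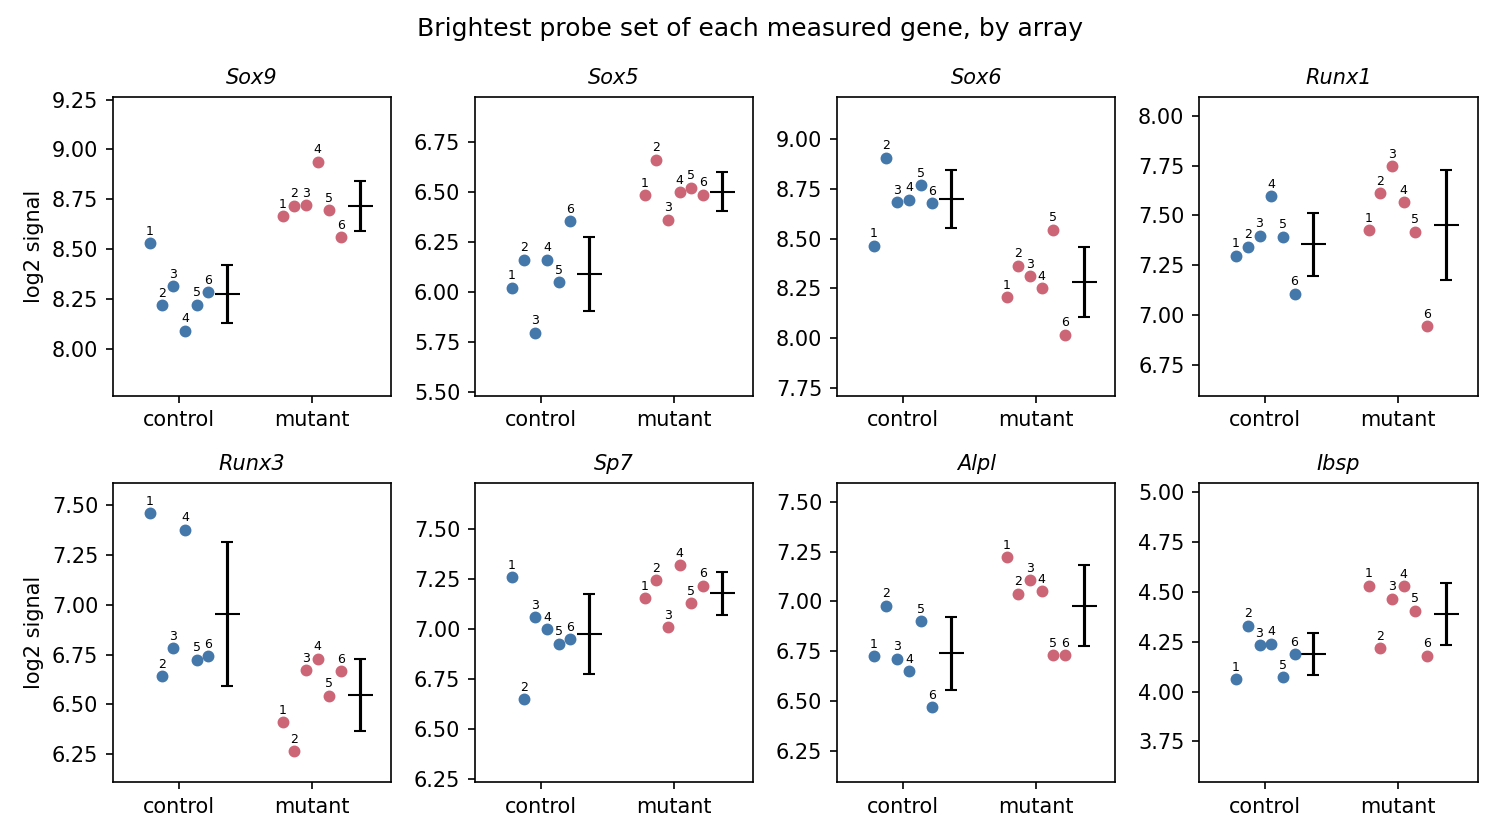
Log2 signal of the brightest probe set of each of the 8 measured genes in the 6 control (blue) and 6 mutant (red) arrays, numbered by replicate, with the mean and SD in black; every panel spans the same height in log2 units. For Sox9 and Sox5 the mutants lie above all controls (lowest mutants 8.56 and 6.36, highest controls 8.53 and 6.35), for Sox6 5 of 6 mutants lie below all controls, and the other genes overlap.

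Sox9 was higher in the mutant tongue. The control arrays read 8.09 at the lowest, 8.25 at the median and 8.53 at the highest, and the mutant arrays 8.56, 8.71 and 8.94. The groups did not overlap, which held for 6.3% of all genes (3.4% with the mutant above, 2.9% with it below), but control 1 lay just under the lowest mutant. The means were 8.28 ± 0.15 and 8.72 ± 0.12 (SD, n = 6 each), a rise of 0.44 ± 0.07 (SE), or 1.36-fold (limma adjusted p = 0.00218). A second probe set, 1424950_at, rose by 0.44 ± 0.08 with no overlap (limma adjusted p = 0.00697, here over the 45037 probe sets that are no array controls). The third, 1433889_at, lay under the median of all probe sets (6.13) and differed by 0.20 ± 0.07, with 5 of 6 mutants above every control (limma adjusted p = 0.144). Single probe sets are adjusted this way throughout. Against these 2 of 3 probe sets of Sox9, 5.4% of those on the array passed, 2.7% upward and 2.7% downward, and 3.94% did not overlap.

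Sox5 was higher by its brightest probe set, and its other probe sets divided. That probe set, 1455535_at, read 5.80, 6.11 and 6.35 in controls (lowest, median, highest) and 6.36, 6.49 and 6.66 in mutants. The lowest mutant, mutant 3, lay just above the highest control, control 6. The rise was 0.41 ± 0.08 (SE), 1.33-fold, from 6.09 ± 0.19 to 6.50 ± 0.10 (SD, n = 6 each; limma adjusted p = 0.00497).

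Sox5 has 7 probe sets, and the other 6 lay under the median of all probe sets. Of these, 1423500_a_at differed by 0.35 ± 0.10 (limma adjusted p = 0.0543), and the remaining 5 lay between −0.11 and 0.15. With the mean of all 7 probe sets, Sox5 differed by 0.12 (adjusted p = 0.150). The call also ended without control 1, control 3, control 4 and mutant 6, the arrays with the narrowest spread of values (0.32, adjusted p = 0.0631).

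Sox6, the member with a second role in muscle, was lower in the mutant tongue. Its brightest probe set, 1434918_at, read 8.46, 8.69 and 8.91 in controls and 8.02, 8.28 and 8.54 in mutants. Mutant 5 (8.54) lay above control 1 (8.46), and the other 5 mutants lay below every control. The fall was 0.42 ± 0.09 (SE), 1.33-fold, from 8.70 ± 0.14 to 8.28 ± 0.17 (SD, n = 6 each; limma adjusted p = 0.00695).

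The 4 probe sets of Sox6 pointed the same way. Probe set 1427677_a_at fell by 0.45 ± 0.11, every mutant lying below every control (limma adjusted p = 0.0284), and 1447655_x_at fell by 0.48 ± 0.10 (0.0131). The dimmest, 1426018_a_at, differed by −0.33 ± 0.10 (0.0632). Control 3, mutant 4 and mutant 6 gave signal from the sex-linked genes of both sexes, and with these arrays left out Sox6 differed by −0.35 (adjusted p = 0.0633). The results below were also run without mutants 1 and 2, without the 4 arrays of narrowest spread and without replicate 6 of both groups, which makes 4 array subsets.

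**Figure D2:**
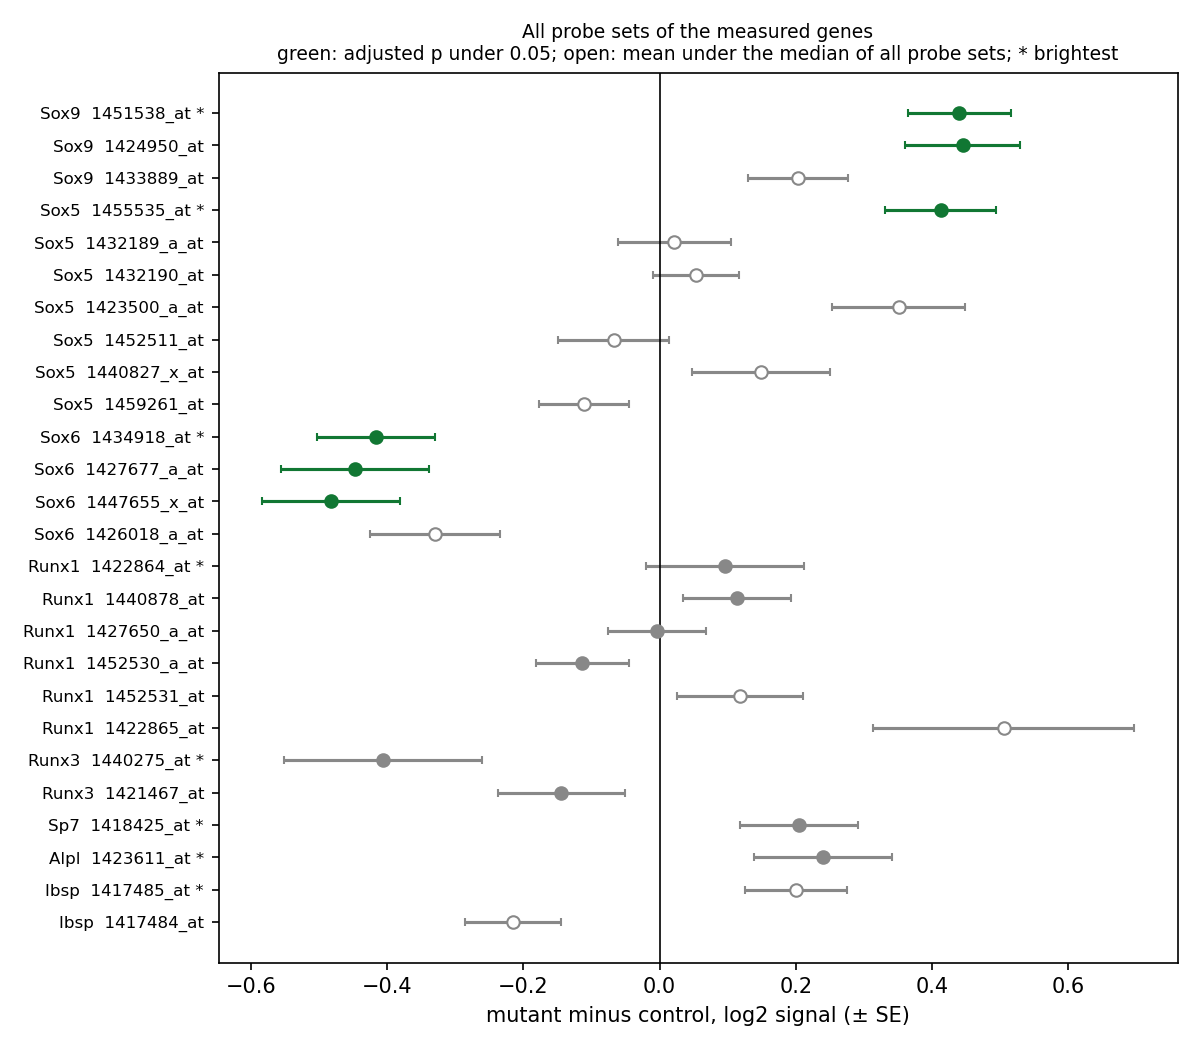
Difference between mutant and control mean log2 signal, ± SE from limma, for all 26 probe sets of the 8 measured genes. Green marks an adjusted p under 0.05 over all probe sets, open circles a mean signal of less than 6.13, the array's median, and asterisks the brightest probe set of each gene; the passing ones are 2 of 3 for Sox9, 1 of 7 for Sox5 and 3 of 4 for Sox6.

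The bases before the starts of Sox5 and Sox6, which encode close relatives, are shown as letters. Whether they bear on the rise of Sox5 and the fall of Sox6 was not tested. Both windows are the 250 bases before a RefSeq start (assembly GRCm38.p6) on the minus strand, 5′ to 3′. The window of Sox5 is chr6:143947107-143947356 and that of the most upstream start of Sox6 is chr7:116038745-116038994. Capitals mark CAGNTG on either strand, the E-box core that myogenic factors bind, and CAGAC on either strand, the short element that SMAD proteins bind.
Sox5: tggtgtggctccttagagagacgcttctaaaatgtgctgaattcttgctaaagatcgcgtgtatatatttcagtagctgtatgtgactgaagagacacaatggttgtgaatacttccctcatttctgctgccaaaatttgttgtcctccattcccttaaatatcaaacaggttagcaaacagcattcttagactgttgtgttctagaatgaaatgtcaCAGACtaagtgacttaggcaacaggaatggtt
Sox6: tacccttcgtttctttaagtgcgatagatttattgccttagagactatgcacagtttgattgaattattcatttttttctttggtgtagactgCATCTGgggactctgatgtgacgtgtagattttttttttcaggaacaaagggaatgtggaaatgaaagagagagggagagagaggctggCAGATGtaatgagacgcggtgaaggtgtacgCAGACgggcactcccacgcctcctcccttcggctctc

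The Sox5 window held 1 match to CAGAC, from 32 to 28 bases before the start, and none to CAGNTG. The Sox6 window held 2 matches to CAGNTG, at 157 to 152 and 68 to 63 bases before the start, and 1 to CAGAC, at 37 to 33. Over the 6 starts that RefSeq gives Sox6, CAGNTG lay in 4 windows and CAGAC in 2. Both are common: CAGNTG lay in 44.8% and CAGAC in 42.2% of the 32851 windows of this length. Such a match is a description of letters and not a site, and the arrays do not tell which start was used. RefSeq windows were found for 7 of the 9 genes, all but Sox9 and Sp7.

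Runx1, the Runt factor of blood stem cells, did not pass. Its brightest probe set read 7.11, 7.37 and 7.59 in controls (lowest, median, highest) and 6.95, 7.50 and 7.75 in mutants. Replicate 6 was the lowest array of each group. The difference was 0.10 ± 0.12 (SE), with a 95% interval from limma of −0.15 to 0.35 before adjustment (adjusted p = 0.680). It moved with the arrays used, from 0.04 without mutant 3 to 0.20 without mutant 6 and 0.27 without the 4 arrays of narrowest spread (adjusted p = 0.133), and passed in none of these. The other 5 probe sets differed by −0.11 to 0.51, and none passed. The 0.51 belonged to 1422865_at, whose control arrays spread from 5.05 to 6.32.

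Runx3, the Runt factor of proprioceptive neurons, also did not pass. Its brightest probe set read 6.64, 6.76 and 7.46 in controls and 6.26, 6.61 and 6.73 in mutants. Controls 1 and 4 stood above the rest, and 3 of 6 mutants lay below every control. The difference was −0.41 ± 0.15 (SE; 95% interval −0.72 to −0.09 before adjustment, adjusted p = 0.0935). The second probe set differed by −0.14 ± 0.09. Without the 4 arrays of narrowest spread, which include controls 1 and 4, the brightest probe set differed by −0.18 (adjusted p = 0.362).

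The osteoblast members were slightly higher in the mutant means and none passed. Sp7, the zinc finger factor without which osteoblasts do not form, read 6.65, 6.98 and 7.26 in controls and 7.01, 7.19 and 7.32 in mutants. It differed by 0.20 ± 0.09 (SE; 95% interval 0.02 to 0.39 before adjustment, adjusted p = 0.153). Control 1 was the highest control and control 2 the lowest array of all. Without control 1 the difference was 0.26 and Sp7 passed (adjusted p = 0.0457), and without control 2 it was 0.14 (adjusted p = 0.256). Without the 4 arrays of narrowest spread, which include control 1, it was 0.33 (adjusted p = 0.0702).

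Alpl encodes the tissue-nonspecific alkaline phosphatase, which supplies phosphate for mineral and is also made outside bone. Its only probe set read 6.47, 6.72 and 6.98 in controls and 6.73, 7.05 and 7.22 in mutants. The difference was 0.24 ± 0.10 (SE; 95% interval 0.02 to 0.46 before adjustment, adjusted p = 0.156), with 4 of 6 mutants above every control.

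Ibsp encodes bone sialoprotein, a matrix protein of mineralising bone. Both its probe sets were dim, and they pointed in opposite directions. The brighter read 4.06, 4.21 and 4.33 in controls and 4.18, 4.44 and 4.53 in mutants, a difference of 0.20 ± 0.07 (adjusted p = 0.101). The dimmer differed by −0.22 ± 0.07 (limma adjusted p = 0.103), so that their mean differed by −0.01. Without mutant 6 the brighter probe set passed, at 0.24 (adjusted p = 0.0411).

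Cartilage matrix genes, many of them targets of SOX9 with SOX5 and SOX6, moved in part. Of 20 listed and measured, 5 rose and 1 fell, and the median difference was 0.04 beside 0.01 over all genes. The type IX collagen genes rose most. Col9a1 read 9.40, 9.53 and 9.94 in controls (lowest, median, highest) and 9.94, 10.24 and 10.74 in mutants, a rise of 0.71 ± 0.13 (SE, limma adjusted p = 0.00381). Col9a2 rose by 0.69 ± 0.11 and Col9a3 by 0.64 ± 0.10, each with every mutant above every control. The dimmer Col9a3 probe sets differed by 0.58 and 0.20 and did not pass (limma adjusted p = 0.0907 and 0.0818). Col11a1, which forms the core of cartilage fibrils, rose by 0.44 ± 0.08 and did not pass without the 4 arrays of narrowest spread (0.40, adjusted p = 0.0749).

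Outside these collagens, 1 gene of the list rose and 1 fell. Named after their values were seen, the link protein gene Hapln1 rose by 0.47 from a dim level (5.15 to 5.61; its other 3 probe sets, between 0.08 and 0.27, did not pass), and Comp, also dim, fell by 0.33. Comp passed with 6 of the 12 arrays left out singly. Hapln1 differed by 0.45 without mutants 1 and 2 (adjusted p = 0.0823). Col2a1, the major cartilage collagen and the best known SOX9 target, differed by 0.21 ± 0.11 (limma adjusted p = 0.295). Acan, the aggrecan core protein, was dim (mean 5.23) and differed by −0.01 (limma adjusted p = 0.933). Both were also named after their values were seen.

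Of 11 genes of the growth plate and of cartilage maturation, 1 rose and 2 fell (median −0.00083). Of the 11, 5 were dim, and the counts were the same with dim probe sets left out. Mef2c, which acts in hypertrophic chondrocytes and in muscle, fell by 0.57 ± 0.11, and its 5 probe sets all passed. Barx1, a homeobox gene of mesenchyme, rose by 0.37 ± 0.07. Sox8, a close relative of Sox9, fell by 0.47 ± 0.13 (adjusted p = 0.0307) and passed with 4 of the 12 arrays left out singly. Without control 3, mutant 4 and mutant 6 Mef2c and Barx1 differed by −0.48 (adjusted p = 0.0604) and 0.36 (0.0539).

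Osteoblast genes other than the members were divided. Of 22 listed, 17 were measured, of which 3 rose and 1 fell (median 0.08). Of the 17, 7 were dim, and with dim probe sets left out 3 rose and 0 fell. Dlx5, a homeobox gene of cranial mesenchyme and osteoblasts, rose by 0.68 ± 0.10 from 6.45 to 7.12, with no overlap. Dlx3 rose by 0.26 and Phex, from a dim 4.42, by 0.56. Dmp1, a matrix protein of osteocytes, fell by 0.81 ± 0.18. Dlx3 passed with 7 and Phex with 4 of the 12 arrays left out singly, Dlx3 passed in 0 and Phex in 1 of the 4 array subsets, their second probe sets differed by −0.07 and −0.09, and Dmp1 differed by −0.78 without mutants 1 and 2 (adjusted p = 0.0620) and by −0.75 without control 3, mutant 4 and mutant 6 (0.0994).

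Partners and antagonists of the Runt factors were all measured. Of 19, 7 rose and 1 fell, with a median of 0.11 beside 0.01 over all genes. Runx1t1, a corepressor of the ETO family, read 10.24, 10.38 and 10.48 in controls and 10.71, 10.89 and 11.09 in mutants, a rise of 0.52 ± 0.07, and 3 of its 6 probe sets passed. Its relatives went both ways. Cbfa2t2 rose by 0.24, and its dimmer probe sets differed by 0.06 and 0.17 and did not pass. Cbfa2t3 fell by 0.35, with 2 of its 4 probe sets passing. Twist2, which restrains RUNX2, rose by 0.36. Cbfb, which encodes the partner shared by the RUNX proteins and was named after its value was seen, rose by 0.17 ± 0.05 (adjusted p = 0.0450). It passed with 3 of the 12 arrays left out singly, and not over all probe sets (limma adjusted p = 0.0872). The count of rises in this list was not firm. On all 12 arrays it was 3 once every gene's probe sets were averaged, and 4 without control 2, control 3, control 4, mutant 1 or mutant 4 alone. Among the array subsets it was 3 without mutants 1 and 2, 2 without control 3, mutant 4 and mutant 6, and 3 without the 4 arrays of narrowest spread. Cbfa2t2 lost its call in each of these 3 subsets (0.20 to 0.23, adjusted p from 0.0597 to 0.119), and Cbfa2t3 in the last (−0.27, adjusted p = 0.0641).

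Of the 16 other Sox genes measured, 2 rose and 1 fell, Sox8 (above), with a median of 0.01. Sox18, a factor of vessels, rose by 0.24 and Sox4, a factor of progenitor cells, by 0.21. The dimmer probe sets of Sox4 differed by −0.06 to 0.48, and none of them passed. Sox18 lost its call without mutant 1, and Sox4 without mutant 1, mutant 2 or mutant 4. Of the 4 array subsets 1 left either gene called, that without replicate 6 of both groups, and Sox8 passed in none of them.

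**Figure D3:**
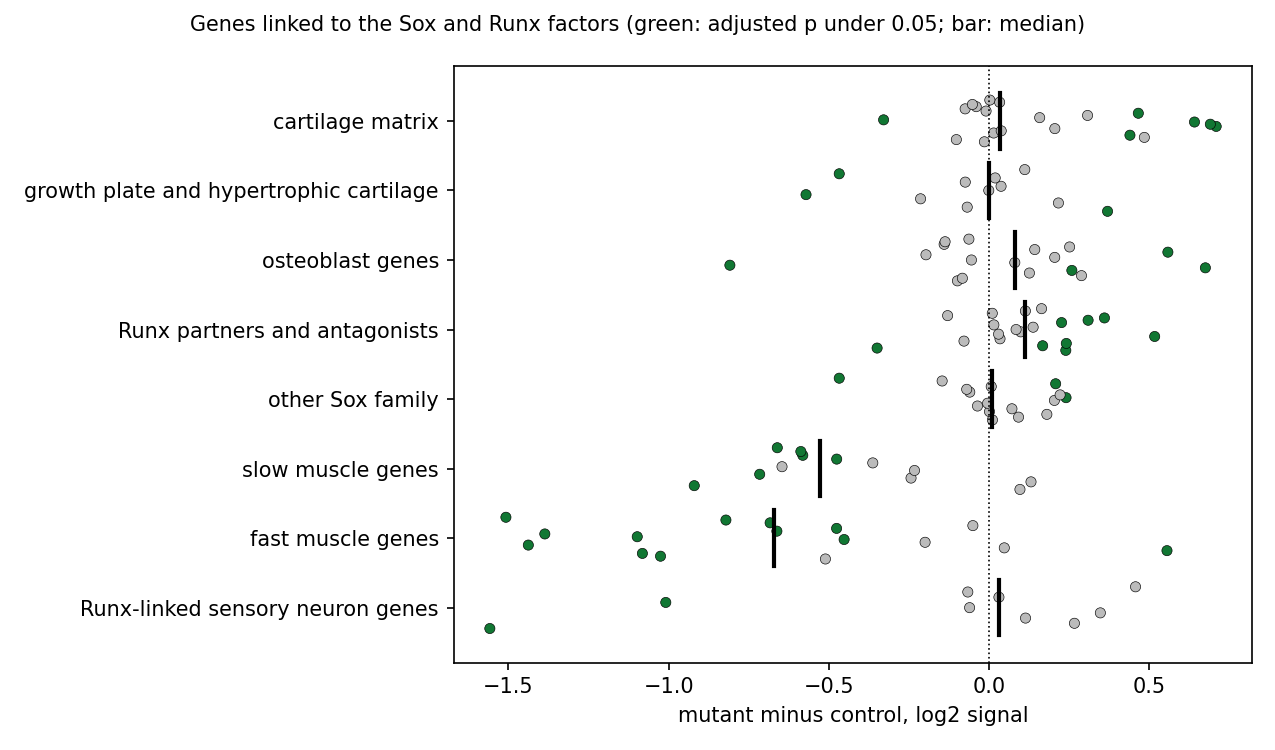
Difference between mutant and control mean log2 signal for each measured gene of the 8 lists linked to the Sox and Runx factors, 1 point a gene, green where the adjusted p is under 0.05, with a bar at the list's median. The medians of the slow and fast muscle lists lie at −0.53 and −0.67, while those of the other 6 lists lie between −0.00083 and 0.11, with single genes on both sides.

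Genes of the slow fibre programme, which SOX6 represses, were lower, as were those of the fast programme. Among 12 slow fibre genes, 6 fell and 0 rose, and their median difference was −0.53. Among the 16 measured fast fibre genes, 11 fell and 1 rose, and the median difference was −0.67. Among the slow genes the troponins Tnnc1, Tnni1 and Tnnt1 fell by 0.58, 0.59 and 0.66, and the calsequestrin Casq2 by 0.92. Among the fast genes Atp2a1, the calcium pump of fast fibres, fell by 1.03, Tnnc2 by 0.68, Myh8, the perinatal myosin, by 1.39 and Myl1 by 0.66. Eya1, a transcription cofactor of muscle precursors picked out here once its value was known, was the exception among the fast genes (0.56). This rise was not firm: 1 fast gene was still higher in 3 of the 12 fits with an array left out and 0 in the rest, and 0 were higher with the mean of all probe sets. At an unadjusted limma p under 0.05, 1 slow gene was higher, the calcium pump Atp2a2 (0.10). Without the 4 arrays of narrowest spread Tnnt1 differed by −0.75 (adjusted p = 0.0504).

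Sox6 followed the markers of skeletal muscle from array to array in part. Among 9 such markers, all of them bright, 8 fell and the median difference was −0.72; 4 fell without the 4 arrays of narrowest spread and 5 without control 3, mutant 4 and mutant 6. Their mean log2 signal ranged from 11.34 to 11.91 in controls and from 10.74 to 11.21 in mutants. Control 1 was the lowest control and control 2 the highest in Sox6 and in the marker mean alike. The mutants did not share their extremes. Mutant 6 was lowest in Sox6 (8.02) and mutant 1 in the marker mean (10.74), while mutant 5 was highest in Sox6 (8.54) and mutant 2 in the marker mean (11.21). The difference of Sox6 (−0.42) was smaller than the median of these markers. The part of muscle content in the Sox6 result was not tested.

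**Figure D4:**
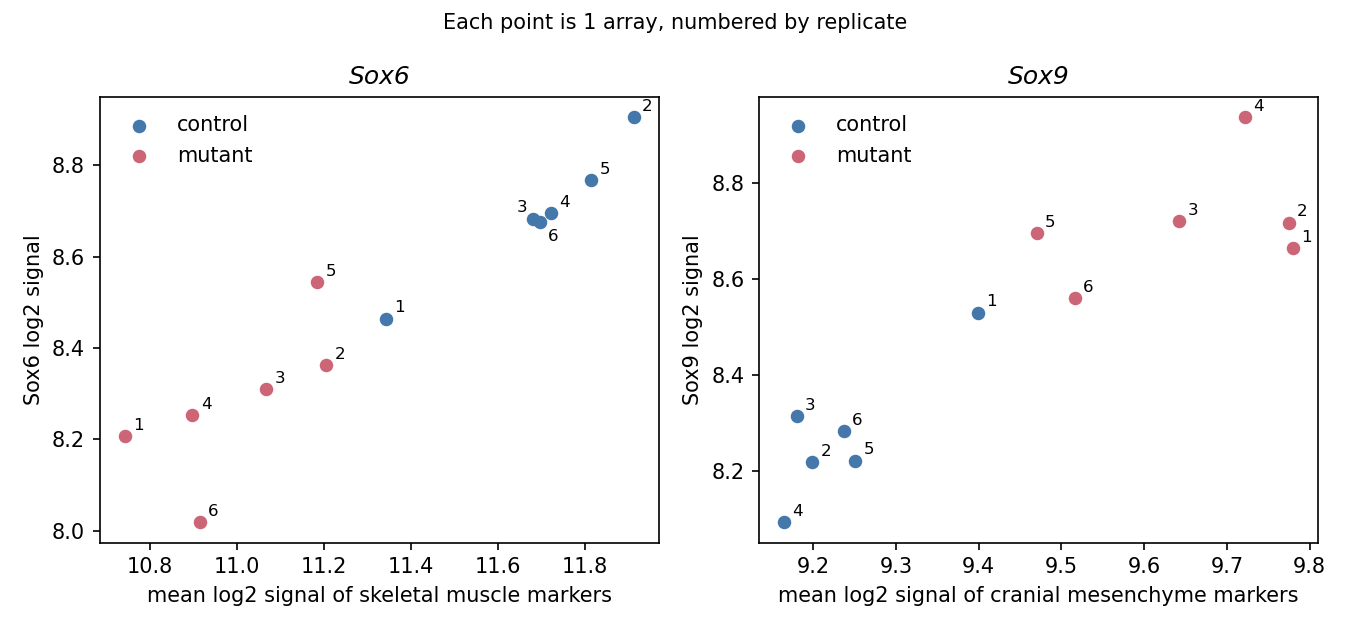
Log2 signal of Sox6 against the mean of 9 skeletal muscle markers (left) and of Sox9 against the mean of 10 cranial mesenchyme markers (right), 1 point an array, blue for control and red for mutant, numbered by replicate. Control 1 lies nearest the mutants on both axes of both panels, with muscle and mesenchyme marker means of 11.34 and 9.40.

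Sox9 and Sox5 rose in arrays where markers of several other tissues were also higher. Among 10 markers of cranial mesenchyme, of which Dlx5, Twist1 and Twist2 are also in lists above, 9 rose, with a median difference of 0.42 (6 without mutants 1 and 2). Their mean went from 9.17 to 9.40 in controls and from 9.47 to 9.78 in mutants, with only Dlx6 dim. Those of smallest p were Dlx5, Prrx1, Pdgfra and Prrx2, at 0.68, 0.61, 0.41 and 0.49. Control 1, the highest control in Sox9, was also the highest control in this mean. Other arrays did not line up in this way. Mutant 1 had the highest marker mean (9.78) with Sox9 at 8.66, while mutant 4 was highest in Sox9 (8.94) at a mean of 9.72. In Sox5 control 1 read 6.02, under the control median of 6.11. Among 9 markers of oral epithelium, 5 rose, with a median difference of 0.26 and means of 10.65 to 11.11 and 11.11 to 11.49. Cldn4, Krt15, Esrp1 and Krt5 rose by 0.46, 0.63, 0.39 and 0.38. Krt5 passed with 6 of the 12 arrays left out singly, and 1 of the 9 rose without mutants 1 and 2, where Krt15, Esrp1 and Krt5 differed by 0.49, 0.29 and 0.29. Likewise 1 rose without control 3, mutant 4 and mutant 6, 2 without the 4 arrays of narrowest spread and 3 without replicate 6 of both groups. The part of tissue content in the rises of Sox9 and Sox5 was not tested.

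Neurons and glia are further tissues in which Runx3 and several Sox genes are made. Of 9 neuron markers 8 rose (median 0.75, with means of 7.69 to 8.02 in controls and 8.19 to 9.10 in mutants). By smallest p these were headed by Snap25 (1.51, the only dim one), Tubb3 (0.89), Elavl4 (0.60) and Stmn2 (0.99). Of 9 measured genes of sensory neurons in which RUNX1 or RUNX3 act, none rose and 2 fell (median 0.03): Calcb, a calcitonin gene-related peptide and dim (mean 5.48), by 1.56, and Ret, a receptor of neurotrophic factors, by 1.01. Of the 9 sensory genes 4 were dim, and with dim probe sets left out 1 gene of this list rose and 1 fell. Of 5 glial markers Fabp7 rose by 1.00 and Erbb3 fell by 0.51, and the means overlapped at 9.54 to 9.77 and 9.69 to 9.93. Sox10, the glial relative of Sox9, differed by 0.09 (adjusted p = 0.450).

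Few markers of leukocytes and vessels, where Runx1 is known to act, passed. Their differences lay above 0 in 8 of 9 leukocyte and 6 of 7 endothelial markers. Of 9 leukocyte markers, with Itgam dim, only Csf1r rose (0.21; list median 0.13), and it passed with 4 of the 12 arrays left out singly. The list means overlapped at 7.53 to 7.65 and 7.63 to 7.81. Of 7 endothelial markers only Sox18 rose (list median 0.09), and the means overlapped at 8.74 to 8.98 and 8.86 to 9.04. No marker list read 0, since these values have no zero.

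The genes most like each member were sought after the genotype means were taken away, by Pearson's r over the 12 arrays among 12172 other genes above the median signal. These are the highest of many values and describe likeness only. Closest to Sox6 were Marchf11 (r = 0.95, Spearman's rho = 0.95), the fast troponin Tnnt3 (r = 0.92, rho = 0.99) and Hhatl (r = 0.92, rho = 0.99). Tnnt3 itself fell by 1.51, and Hhatl by 0.37, while Marchf11 differed by −0.07 (adjusted p = 0.790). Closest to Sox9 were Tpm4, Psma2 and Ipo13 (r = 0.84 to 0.90), none of which passed. Sox5 was nearest Ankib1, Trim27 and 1810013L24Rik (r = 0.85 to 0.86). Of these Ankib1 rose by 0.17 (limma adjusted p = 0.0377), and the others did not pass.

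The likenesses of the other members were as follows. Runx1 was nearest Wnt16, S100a13 and Rgs4 (r = 0.92 to 0.94), and Runx3 nearest Rftn1, Ghrhr and Dut (r = 0.85 to 0.87). Sp7 was nearest Tcf20, Dpf2 and Tns3 (r = 0.89 to 0.90), and Alpl nearest Atpaf1, Zfas1 and Eif3e (r = 0.93 to 0.94). Among these neighbours of Runx1, Runx3, Sp7 and Alpl, Rgs4 rose by 0.70 and Tns3 by 0.20 (limma adjusted p = 0.0352 and 0.0167). The others did not pass. Among the members, r between Sox9 and Sox5 was −0.20, between Sox9 and Sox6 −0.19 and between Sox5 and Sox6 0.20, and over all 28 pairs it ran from −0.64 (Sox6 with Sp7) to 0.55. Probe sets of a gene were not always alike. The brightest Sox6 probe set had r = 0.80, 0.80 and 0.40 with the others, while the brightest Sox5 probe set had −0.26 to 0.32.

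Smad4, the targeted gene, differed by −0.15 ± 0.10 (limma adjusted p = 0.427) in whole tongue by its brightest probe set. Control arrays read 12.16 to 12.35 (median 12.30) and mutant arrays 11.58 to 12.30 (median 12.25), with 1 mutant below every control. The dimmer probe sets of Smad4 differed by −0.15 and −0.07 and did not pass. The place of its probes relative to the floxed exon was not examined here, so this signal does not check the genotype labels. Correlations between arrays ran from 0.991 to 0.997. Signal of 18S RNA was lowest in mutant 6 (12.98) and control 6 (13.54), and at least 14.03 elsewhere. On the first principal component the arrays most distant from the control group were mutants 1 and 2. Markers of muscle and oral epithelium were bright, with Myog at 13.14 and Krt5 at 11.80 in controls.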

How the data were processed

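The deposited values are log2 signals per probe set. RMA is the tool named in the submitters' processing notes; it combines the probes of a set after background correction and scaling between arrays. It hides shifts shared by most genes and understates changes of dim probe sets. Of software, version and log base the sources used here say nothing, and base 2 was taken from the range (2.57 to 15.09). A free-text label that describes other embryos was not used. Gene symbols came from GEO's platform annotation. Of 45101 probe sets, 64 controls, 932 with several symbols and 9160 with none were left out of the test over genes.

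The test was that of limma 3.58.1 under R 4.3.3 (lmFit, eBayes, genotype as the only term, 2-sided, Benjamini-Hochberg adjustment over 18193 genes or over all probe sets), after a check on simulated data. Lists were summarised by counts and medians, without a set test. Precision is limited by the 6 arrays a group. The p-values measure the spread between samples that the labels call biological replicates.

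Members, lists and tests were chosen with earlier results of these data known. Named were all members, up to 4 passing genes of each list by smallest p (with none passing, the one of smallest p), and the 3 genes most like each member above the median signal. Promoter windows came from RefSeq, and motifs were matched by letters. Alternatives were other scalings, other choices of probe set, a filter on dim probe sets, other variance models, array weights, a replicate block, each array left out and 4 added subsets of arrays.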

Additional observations from a re-analysis of the deposited data

Results flagged for a closer look

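In 52 groups of 6 arrays, the 26 probe sets of the members in each genotype, 1 array stood far from the rest. It was control 4 in the dim Sox5 probe set 1440827_x_at, at 4.13 where the next control read 3.78, a gap of 0.636 of the whole range. Chance marks about 1 in 20 such groups.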

How the results depend on the processing

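Sox9, Sox5 and Sox6 kept their direction under every alternative run, and Sox9 passed in each. Over the 12 arrays left out singly, the difference ran from 0.40 to 0.49 for Sox9, from 0.35 to 0.47 for Sox5 and from −0.47 to −0.36 for Sox6, and all 3 passed each time; Sp7 ran from 0.14 to 0.26, Ibsp from 0.17 to 0.24, Runx1 from 0.04 to 0.20, Runx3 from −0.47 to −0.31 and Alpl from 0.19 to 0.29. Genes higher ran from 733 to 1209, lowest without mutant 1 (733) and mutant 2 (763), and genes lower from 665 to 899, beside 1147 and 873 with all arrays. With the mean of all probe sets Sox5 differed by 0.12 and Ibsp by −0.00764, turning its sign. The 4 subsets were chosen after seeing the data: without mutants 1 and 2, 379 genes were higher and 496 lower; without control 3, mutant 4 and mutant 6, 440 and 396, and Sox6 differed by −0.35; without control 1, control 3, control 4 and mutant 6, 440 and 564, and Sox5 differed by 0.32. Each of these tests fewer samples. With the dim probe sets left out, Ibsp was not tested. Quantile normalisation and centring left the median of all genes at 0.01. The replicate numbers were not taken to pair the samples, and the labels give no litter. Same-numbered arrays of number 3 deviated with a correlation of −0.08. The other numbers gave 0.11 to 0.28, and 4 of 6 numbers matched best with themselves, a hint from the data that some may share a source. With the replicate block, 1047 genes were higher and 885 lower, and Sox9, Sox5 and Sox6 passed (0.44, 0.41 and −0.42). Dim probe sets, as those of Ibsp and most of Sox5, limit what can be seen.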
